A study of Petunia x hybrida with 22 samples.

Results

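Broad domains of H3K36me3 were intervals of the petunia genome, 10 kb or longer, over which the mark was lower at 7PM than at 7AM in corolla tissue. They were taken from the authors' deposited lists of islands (intervals called as enriched) whose H3K36me3 differed between the 2 times. All islands spanning at least 10000 bp were collected from the 4 H3K36me3 lists and joined where they overlapped by 1 bp or more. The 4 lists held 25251 islands, of which 1175 were long enough, and these gave 1154 domains, all of them lower at 7PM. The long islands came from 1 replicate almost alone: 1154 were in the lower list of replicate 3, 21 in the lower list of replicate 1 and 0 in either list of higher islands. Each of the 1154 domains held a replicate 3 island of 10 kb or more, and 46 (3.99%) were also listed lower in replicate 1. Fold and length chose the domains, so both are described here without a test.

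H3K36me3, the trimethylation of a lysine in the tail of histone H3, lies over the transcribed bodies of genes and is laid down as RNA polymerase II elongates. In Arabidopsis the methyltransferase SDG8 deposits most of it. H3K4me3 is found near the transcription start of active genes, and the acetylation marks H3K9ac and H3K27ac mark active promoters and enhancers.

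Chromatin immunoprecipitation with sequencing (ChIP-seq) was made from the corolla, the scented petal tissue, of cultivar Mitchell of Petunia × hybrida, a garden petunia with white flowers whose scent is released at night. All plants grew with 14 h of light, from 6AM to 8PM, and 10 h of dark, and tissue was crosslinked with 1% formaldehyde. The 7AM group was therefore taken soon after lights came on and the 7PM group shortly before they went off, and no other treatment or genotype separated them. Each of 4 marks had 2 biological replicates per time, numbered 1 and 3 for H3K36me3 and 1 and 2 for H3K4me3, H3K27ac and H3K9ac, while the 6 input samples were not used here. The labels do not say from how many flowers or plants a replicate was made. Replicate 1 of H3K36me3 was the deeper, with 43918569 (7AM) and 39485141 (7PM) reads, against 32431600 (7AM) and 26643442 (7PM) for replicate 3. Those of the other marks held 6721831 to 51116862 reads. Scaffold names and positions are those of the lists, counted from 1, and the genome build is not given in the sources used here. No gene annotation was used, so which genes, exons or introns the domains cover was not analysed here.

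The domains covered 17.6 Mb on 588 scaffolds. They ran from 10 to 51.6 kb with a median of 13 kb, and the middle of the distribution lay between 11.2 kb (lower quartile) and 17.2 kb (upper quartile). Lengths of 15 kb or more were reached by 416 domains, 20 kb by 176, 30 kb by 39 and 40 kb by 11. Long islands were far more common in replicate 3, where they made up 9.91% of 11648 lower islands and 30.6% of the length of that list, than in replicate 1, where they made up 0.567% of 3702 lower islands and 3.37% of its length. The median lower island was 3800 bp long in replicate 3 and 1400 bp in replicate 1. Higher islands stayed short in both replicates, with longest members of 7000 bp in replicate 1 and 5000 bp in replicate 3.

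**Figure D1:**
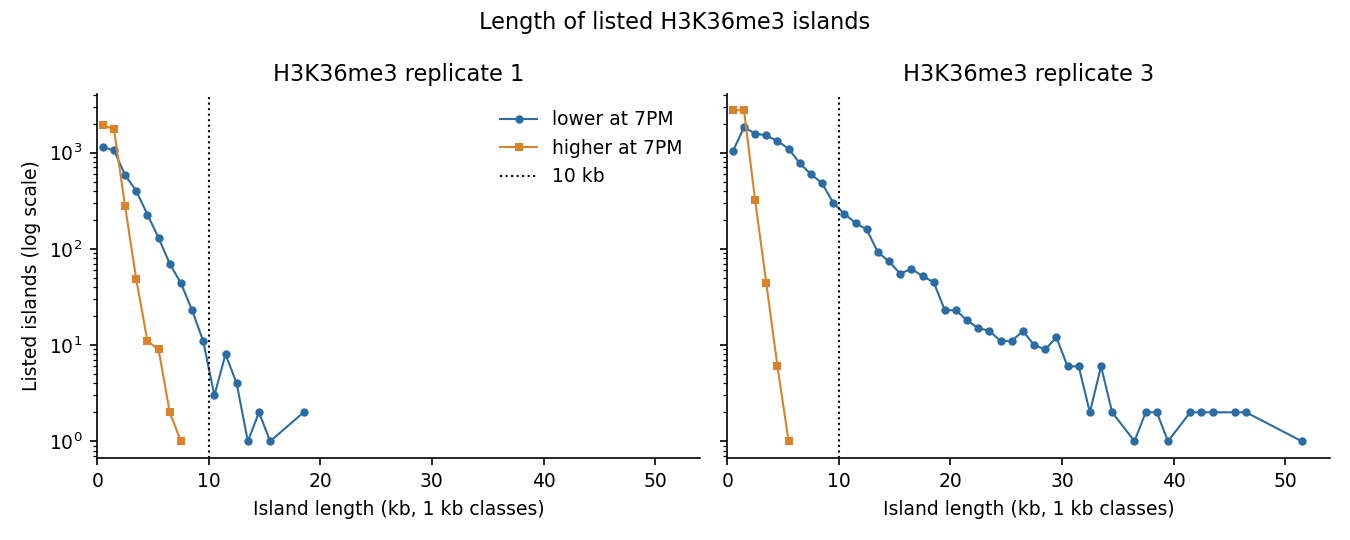
Number of listed H3K36me3 islands (log scale) in 1 kb classes of length (kb) for replicate 1 (left) and replicate 3 (right), with lower islands in blue, higher islands in orange and 10 kb dotted; classes without an island are not drawn. Lower islands of replicate 3 extended to 51.6 kb and those of replicate 1 to 18.8 kb, while no higher island reached 10 kb.

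The limit of 10 kb fell within a continuous run of lengths. In replicate 3, 56 islands were 9800 bp long, 61 were 10000 bp and 39 were 10200 bp. Just inside the limit were the islands on Peaxi162Scf00382 (186201 to 196200; replicate 3, 1250 reads at 7AM and 377 at 7PM, 2.72-fold lower), on Peaxi162Scf00296 (1138001 to 1148000; 1221 and 433 reads in replicate 3, 2.31-fold) and on Peaxi162Scf00767 (194201 to 204200; 1535 and 580 reads in replicate 1, 2.38-fold). Just outside, at 9800 bp, were those on Peaxi162Scf00077 (1741 and 762 reads in replicate 1, 2.05-fold), on Peaxi162Scf00456 (1645 and 716 reads in replicate 1, 2.06-fold) and on Peaxi162Scf00328 (1486 and 441 reads in replicate 3, 2.76-fold). Density and fold were of the same size on both sides of the limit.

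Each domain held many reads, so counting error on its replicate 3 fold was small. At 7AM the domains held 580 to 5540 reads in replicate 3 (median 1189.5) and at 7PM 211 to 1898 (median 429). Expressed per length, the 7AM density was 1.58 to 4.75 CPM (counts per 1000000 library reads) per kb with a median of 2.78. The 7PM density was 0.737 to 2.19 CPM per kb with a median of 1.23. The middle 90% of domains thus spanned little: the 95th percentile of density was 1.70 times the 5th at 7AM and 1.58 times at 7PM. The fall was between 2.00-fold and 3.17-fold, with a median of 2.24-fold, where the lists themselves begin at 2-fold. It was under 2.5-fold in 1030 domains (89.3%) and 3-fold or more in 3. In 612 domains (53.03%) the 95% counting interval of the ratio lay wholly above 2-fold, a limit that chose all domains on the same reads. These intervals cover counting error only and not the variation between plants.

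Densely marked domains had the larger falls. Across the 1154 domains the 7AM density and the log2 fold (7PM over 7AM) of replicate 3 had Pearson's r = -0.49 and Spearman's rho = -0.48, but both measures share the 7AM reads. Length and the log2 fold had r = 0.14, so longer domains fell slightly less. Length and 7AM density had r = 0.09. All domains share the same 2 libraries, so these values only describe the list.

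**Figure D2:**
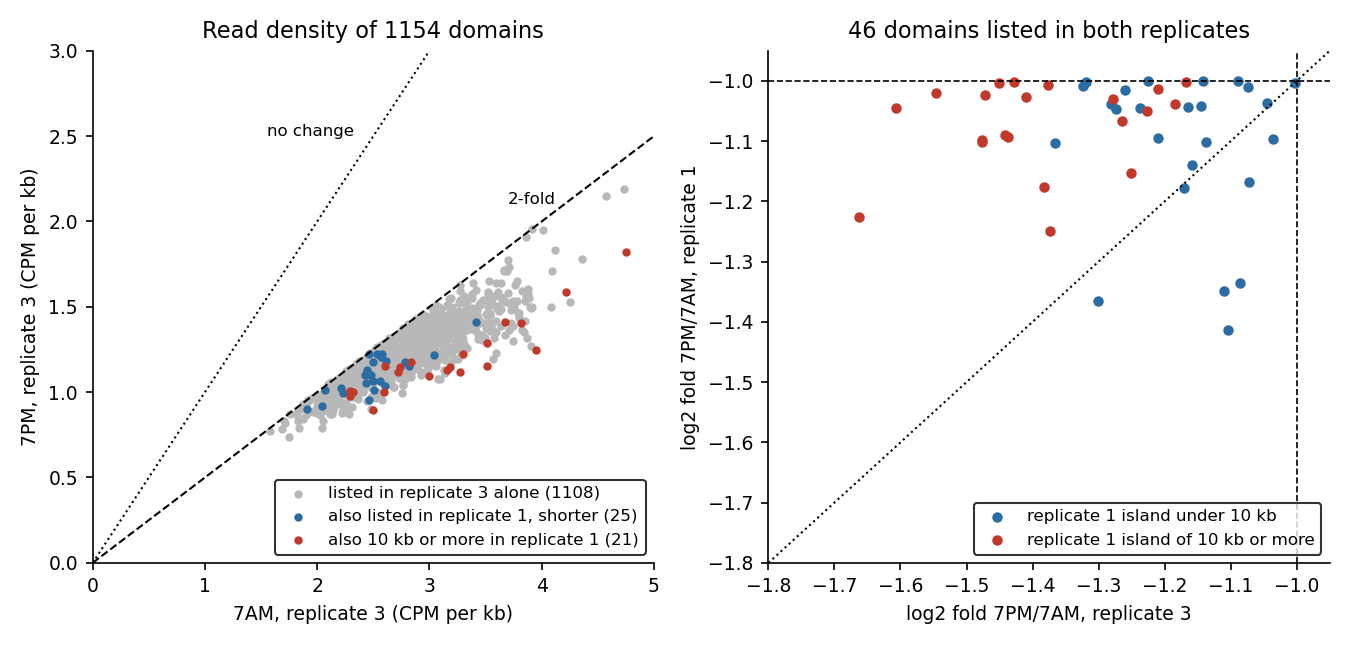
Left, H3K36me3 density (CPM per kb) of the 1154 domains in replicate 3 at 7AM (horizontal) and 7PM (vertical), coloured by listing in replicate 1; right, the log2 fold of 7PM over 7AM in replicate 3 (horizontal) and replicate 1 (vertical) for the 46 domains listed in both, with equal folds dotted and the 2-fold limit of the lists dashed. The cloud lies along the 2-fold line, and 38 of the 46 domains lie above the line of equal folds, with the larger fall in replicate 3.

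The 5 longest domains were each seen in replicate 3 alone. The longest, on Peaxi162Scf00089 (762001 to 813600), held 5540 reads at 7AM and 1898 at 7PM, or 3.31 and 1.38 CPM per kb, a 2.397-fold fall (95% counting interval 2.28 to 2.53). On Peaxi162Scf00210 (233401 to 280200) 4265 reads at 7AM became 1608 at 7PM, a 2.18-fold fall (2.06 to 2.31). The domain also held 2 H3K4me3 islands that were lower in replicate 2. On Peaxi162Scf00435 (974401 to 1020600) reads went from 5019 to 1764, a 2.34-fold fall (2.21 to 2.47). On Peaxi162Scf00454 (72601 to 118200) they went from 5147 to 1869, a 2.26-fold fall (2.15 to 2.39), and on Peaxi162Scf00293 (791001 to 836600) from 4419 to 1618, a 2.24-fold fall (2.12 to 2.38). Of these 5, the domain on Peaxi162Scf00454 was the only one with a region of another mark listed in one direction in both of that mark's replicates, an H3K27ac fall at its right end. At the right end of the domain on Peaxi162Scf00435 an H3K9ac region (1018001 to 1020800) was listed in opposite directions: replicate 1 went from 92 to 43 reads between 7AM and 7PM, and replicate 2 from 47 to 123. The domain on Peaxi162Scf00293 held no listed island of the other marks.

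Support from the second replicate was rare. Replicate 1 listed a lower island in 46 of the 1154 domains (3.99%, 95% exact binomial interval 2.93 to 5.28) and a higher island in 0 (at most 0.319%), against 21% and 0.0172% of all lower replicate 3 islands of any length. The share became smaller with island length: it was 36.5% (34.8 to 38.3) of 2852 islands under 2 kb, 23.9% (22.7 to 25.2) of 4397 islands of 2 to under 5 kb, 9.40% (8.42 to 10.5) of 3245 islands of 5 to under 10 kb, and 3.99% of the broad domains. A longer interval has more places to meet an island, and the replicate 1 libraries were the deeper pair. The median log2 fold of replicate 3 also moved toward the 2-fold limit of the lists, from -1.38 under 2 kb to -1.16 in the broad class. What part interval length, depth and this limit had in the trend was not tested. Measured by length, replicate 1 lower islands covered 32.6% of the shortest class, 19.96% of the next, 7.40% of the third and 2.01% of the broad islands of replicate 3. The lists hold only islands changed at least 2-fold, so the reads of replicate 1 in the other 1108 domains are not known. A fall of less than 2-fold and no fall cannot be told apart there.

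Seen from replicate 1 the overlap ran the other way. All 21 of its lower islands of 10 kb or more were lower in replicate 3 as well (100%, 83.9 to 100), against 65.6% of its 3702 lower islands. The share was 49.4% under 2 kb, 87.2% at 2 to under 5 kb and 96.4% at 5 to under 10 kb. The larger list of replicate 3 makes such an overlap easier to meet, and no test of these shares was made.

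**Figure D3:**
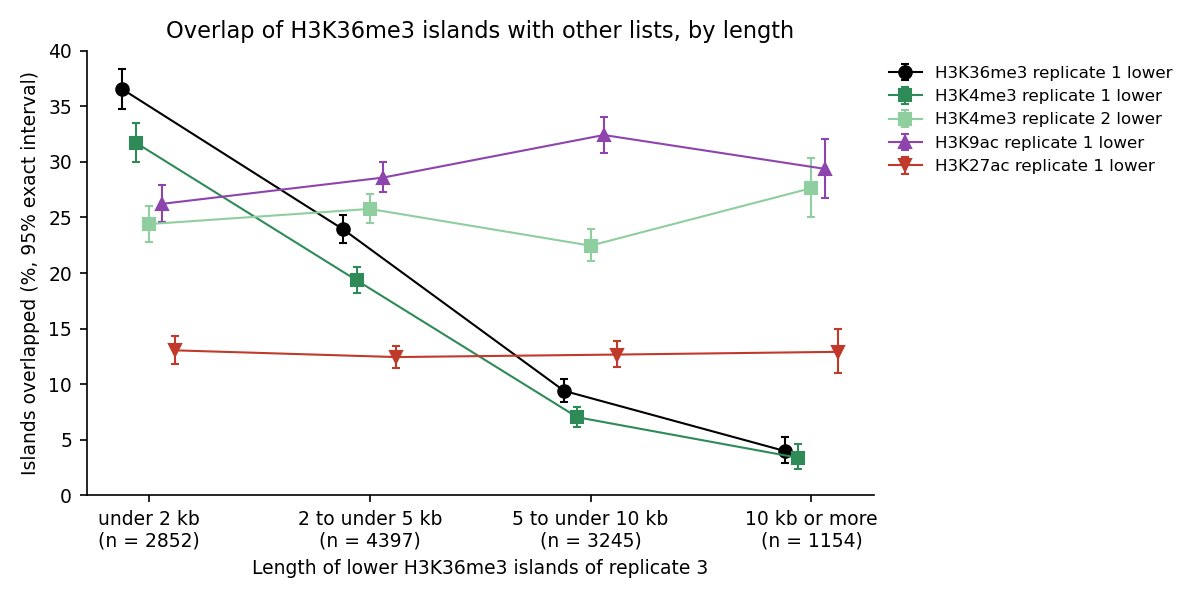
Share (%) of lower H3K36me3 islands of replicate 3 that were overlapped by 1 bp or more by islands of 5 other lists of lower islands, in 4 classes of island length; bars are exact 95% binomial intervals over islands. Shares for replicate 1 of H3K36me3 and of H3K4me3 became smaller with length, from 36.5% to 3.99% and from 31.7% to 3.38%, while the other 3 lists stayed between 12.4% and 32.4%.

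Fold and density moved with length too. The median 7AM density of lower replicate 3 islands was 2.13 CPM per kb under 2 kb, 2.43 at 2 to under 5 kb, 2.59 at 5 to under 10 kb and 2.78 in the broad class, and the median 7PM density was 0.751, 0.996, 1.13 and 1.23 CPM per kb. The median log2 fold accordingly was -1.38, -1.25, -1.19 and -1.16. Broad islands were thus the most densely marked class at both times and had the smallest fall. The authors' FDR limit acts on reads per island and so on length, and its part in these class medians was not tested.

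In the 46 domains listed in both replicates, H3K36me3 was at least 2-fold lower in each by choice, because both lists begin there. The fold of a domain in one replicate did not follow that in the other. The median log2 fold was -1.04 in replicate 1 (-1.41 to -1.0007) and -1.26 in replicate 3 (-1.66 to -1.0031). The fall was larger in replicate 3 in 38 of the 46, and the SD between the 2 replicates had a median of 0.15. Across the 46 domains both folds together had Pearson's r = -0.09 and Spearman's rho = -0.02, over a range that the 2-fold limit truncates. Replicate 1 islands covered between 0.87% and 100% of these domains, with a median of 81.3%, and in 25 domains the replicate 1 island was shorter than 10 kb. The folds of both replicates are thus not always taken over the same interval.

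The 21 domains of 10 kb or more in both replicates had nearly the same borders. Of their 42 ends, 34 lay within 1 kb of each other and 10 in the same 200 bp window, and the median offset was 400 bp. The exception with the largest offset was the left end on Peaxi162Scf00071 (774201 to 793200), where the replicate 1 island was 18800 bp long and that of replicate 3 was 11200 bp, an offset of 7800 bp. The replicate 1 island was the longer in 11 of the 21. These domains had a median replicate 3 density of 3.16 CPM per kb at 7AM and 1.15 at 7PM, and a median fall of 2.66-fold. In replicate 1 the medians were 3.82 and 1.88 CPM per kb.

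Among domains listed in both replicates, the largest mean fall was on Peaxi162Scf01006 (233201 to 248200; 15 kb). Replicate 1 had 2790 reads at 7AM and 1072 at 7PM (4.24 and 1.81 CPM per kb), and replicate 3 had 1460 and 378 (3.95 and 1.24 CPM per kb). The mean log2 fold was -1.44 ± 0.31 (SD over the n = 2 pairs, as for the next domains). Every 7AM density lay above both 7PM densities, but the domain was chosen for its fall in these same values. On Peaxi162Scf00417 (1478401 to 1490400) replicate 1, whose island covered 26.7% of the domain, had 549 and 191 reads and replicate 3 had 974 and 324, with a mean log2 fold of -1.33 ± 0.045. On Peaxi162Scf00344 (1145001 to 1157400) reads went from 2364 to 1030 and from 1389 to 374, with a mean of -1.33 ± 0.398. The 2 replicates differed most here, with log2 folds of -1.04 and -1.61. On Peaxi162Scf00767 (194201 to 205400) reads went from 1535 to 580 and from 942 to 298, with a mean of -1.31 ± 0.088. On Peaxi162Scf00942 (81401 to 93600) they went from 2077 to 870 and from 1249 to 368, with a mean of -1.29 ± 0.27.

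The other 3 marks were not used to choose the domains. Of the 1154 domains, 381 (33.02%) held no listed island of any of them, and 56 (4.85%) held islands of all 3, where the background over all 11648 lower H3K36me3 islands of replicate 3 was 36.2% and 6.58%. H3K9ac islands were in 513 domains (44.5%; background 40.5%), H3K4me3 islands in 345 (29.9%; background 34.8%) and H3K27ac islands in 281 (24.4%; background 21.4%), in either direction and replicate. These shares were near the background. A region of another mark listed in one direction in both of its replicates was in 69 domains (5.98%; background 11.7%). Such regions were lower in 53 of the 69 (4.59% of the domains; background 10.9%) and higher in 16 (1.39%; background 0.859%), and no domain held both directions. Lower regions are the more common kind in the lists as a whole, so their excess over higher ones is not particular to the domains.

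Position relative to the domain ends was described list by list. The first 5 kb on either side of every domain end was divided into 200 bp windows, and the share of windows covered by a listed island was taken over all ends. Both ends were treated alike because the strand of transcription is not known. Lower H3K9ac islands of replicate 1 covered 11.5% of windows in the first 1 kb inside the ends and 2.90% at 1 to 5 kb inside, with 9.92% in the 1 kb just outside. Lower H3K27ac islands of replicate 1 covered 4.66%, 0.906% and 4.69% of the same zones, and those of replicate 2 covered 2.48%, 0.425% and 2.59%. In these 3 lists coverage was higher around the ends than further in. At 5 to 1 kb outside it was 6.60%, 3.77% and 2.22%, so for H3K27ac the level outside was close to that at the ends. Lower H3K9ac islands of replicate 2 did not share that shape, with 0.833% at 5 to 1 kb outside, 0.42% just outside, 0.312% in the first 1 kb inside and 0.251% at 1 to 5 kb inside. Higher acetylation islands of replicate 2 were also most frequent near the ends: H3K9ac covered 2.88% just outside, 6.33% of the first 1 kb inside and 2.11% at 1 to 5 kb inside, and H3K27ac covered 1.72%, 2.31% and 0.678%. Higher coverage around the ends than further in was therefore not particular to lower acetylation. The 2 replicates of H3K4me3 differed. Lower H3K4me3 islands of replicate 2 covered 1.31% of the 1 kb just outside, 6.05% of the first 1 kb inside and 6.43% at 1 to 5 kb inside, while those of replicate 1 covered 0.613%, 1.11% and 0.706%, with 1.51% at 5 to 1 kb outside. Of the 384 lower H3K4me3 islands of replicate 2 in the domains, with a median length of 2000 bp, 215 lay inside and did not come within 1 kb of an end. Most of the length of a domain lies that far from its ends, so this count does not show a preference for the inside.

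**Figure D4:**
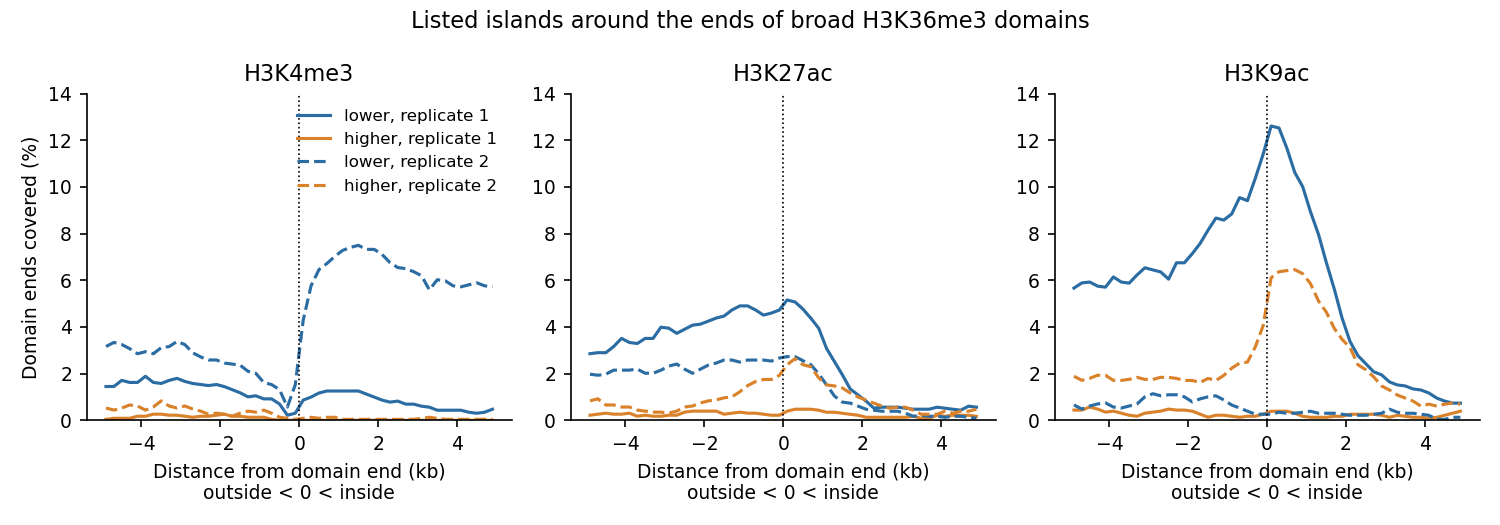
Share (%) of domain ends covered by a listed island of H3K4me3 (left), H3K27ac (middle) or H3K9ac (right) in 200 bp windows against distance from the end (kb, negative outside and positive inside); lines are single lists, blue for lower and orange for higher, solid for replicate 1 and dashed for replicate 2. Of the 8 acetylation lines 6 are highest within 1 kb of the ends, with 12.6% for H3K9ac replicate 1 lower, and 2 are highest further outside, H3K9ac replicate 2 lower (1.14%) and H3K9ac replicate 1 higher (0.57%); H3K4me3 replicate 2 lower peaks in the window that starts 1400 bp inside, at 7.50%, and H3K4me3 replicate 1 lower 4000 bp outside, at 1.89%.

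H3K4me3 was lower in the domains wherever both of its replicates listed it, but the replicates met the domains at very different rates. Replicate 1 listed a lower island in 40 domains (3.47%, 2.49 to 4.69; background 17.4% of all lower replicate 3 islands of H3K36me3) and replicate 2 in 319 (27.6%, 25.1 to 30.3; background 24.7%). Higher islands were in 0 and 10 domains (backgrounds 0.0172% and 0.481%). A region lower in both replicates was in 13 domains (1.13%, 0.601 to 1.92; background 7.56%). The share in both replicates and that in replicate 1 were thus below those of shorter islands, and the share in replicate 2 was close to its background. By length, the regions lower in both covered 0.401% of the broad islands of replicate 3 and 7.29% of those of 2 to under 5 kb.

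All 13 of these H3K4me3 regions fell (edgeR quasi-likelihood test blocked on replicate, adjusted p between 0.0026 and 0.0046) and 0 rose, where 88.7% of all 1866 tested regions of the mark were called lower and 9.97% higher. The authors' threshold had already chosen every tested region as changed in each pair, so the test adds only how closely the 2 pairs match. Without the block 0 of the 13 passed (5 at an unadjusted p under 0.05), and 0 passed under TMM or median-of-ratios scaling, which moved the median log2 fold of all tested regions up by 1.24 and 1.25. The falls are therefore relative to the library totals. Log2 folds of the 13, as means of both pairs, ran from -1.49 to -1.04 with a median of -1.22, against -1.30 for all regions of the mark lower in both. Each of the 13 reached within 1 kb of a domain end, and 91.2% of their summed length lay inside the domains. Of the 13, 7 extended beyond the domain and so reached an end by definition. The same share was not taken for shorter H3K36me3 islands, for this mark or the acetylation marks below. On Peaxi162Scf00452 (126001 to 139600) H3K4me3 reads of replicate 1 went from 1296 at 7AM to 882 at 7PM and those of replicate 2 from 822 to 278, with log2 folds of -1.13 and -1.44. This region was the longest of the 13 and was chosen for mention after its values were seen. On Peaxi162Scf00942 (82001 to 93600) H3K4me3 reads went from 1563 to 1042 and from 611 to 168 over nearly the whole domain.

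H3K27ac changed in both directions at the domains. Lower islands were in 149 domains in replicate 1 (12.9%, 11.03 to 14.98; background 12.7%) and in 78 in replicate 2 (6.76%, 5.38 to 8.36; background 6.84%). Higher islands were in 24 (2.08%, 1.34 to 3.08; background 1.24%) and 99 (8.58%, 7.03 to 10.3; background 5.58%). The shares for lower islands were close to the background of shorter islands, although the domains are longer. By length, lower islands of replicate 1 covered 1.13% of the broad islands of replicate 3 against 3.91% of all its lower islands. Regions lower in both replicates were in 38 domains (3.29%; background 3.94%) and regions higher in both were in 11 (0.953%; background 0.627%).

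Of 53 tested H3K27ac regions in the domains, 38 fell and 11 rose (edgeR quasi-likelihood test blocked on replicate, adjusted p between 0.0062 and 0.037; 83.2% of all 4371 tested regions were called lower and 9.56% higher), and the other 4 went down in replicate 1 but up in replicate 2. As for H3K4me3, the lists had already chosen every tested region as changed in each pair. The 38 and 11 called regions were those listed one way in both replicates, so the test adds only how closely the 2 pairs match. Falls had a median log2 fold of -1.42 and rises of 1.75, as means of both pairs. Under TMM and under median-of-ratios scaling, which moved the median of all tested regions up by 1.41, 0 were called lower and 11 higher, so the split turns with the scaling. Without the block 26 were called lower and 10 higher. Position differed as well: 37 of the 38 falling regions reached within 1 kb of a domain end, and 35 extended beyond the domain, with 41.1% of their summed length inside. Of the 11 rising regions 6 reached an end and 5 lay wholly inside, with 81.7% of their length inside. No test of this difference in position was made, and a region that extends beyond a domain reaches its end by definition.

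The largest rise of H3K27ac in a domain with lower H3K36me3 was on Peaxi162Scf00274 (339401 to 343200), where replicate 1 had 24 reads at 7AM and 194 at 7PM and replicate 2 had 25 and 151. Its edgeR log2 fold was 2.53 (adjusted p = 0.0062, quasi-likelihood test). The next was on Peaxi162Scf01578 (36401 to 41000), 5 kb inside a domain of 13.4 kb, from 20 to 128 reads and from 11 to 68 (log2 folds 2.30 and 2.28). On Peaxi162Scf00170 (166201 to 168000) H3K27ac reads went from 6 to 30 and from 5 to 33, on Peaxi162Scf00057 (2716201 to 2718200) from 6 to 30 and from 3 to 17, and on Peaxi162Scf00399 (792401 to 793800) from 10 to 35 and from 2 to 17. All 5 were called higher by the same test, after both lists had already chosen them as higher, and the last 3 rest on few reads at 7AM. H3K36me3 of replicate 3 in these 5 domains was 2.06-fold to 2.51-fold lower. None of the 5 was listed for H3K36me3 in replicate 1, so the opposite direction of the marks there rests on 1 H3K36me3 pair.

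H3K9ac differed between its own replicates at the domains, as it did over all lower replicate 3 islands of H3K36me3. Replicate 1 listed lower islands in 340 domains (29.5%, 26.8 to 32.2; background 29.2%) and higher ones in 29 (2.51%; background 1.12%). Replicate 2 listed lower islands in 36 (3.12%; background 1.54%) and higher ones in 183 (15.9%, 13.8 to 18.1; background 12%). In 36 domains replicate 1 had a lower and replicate 2 a higher island, and in 0 the reverse. Islands for the first case were in 340 and 183 domains and for the reverse in 29 and 36. By list size the first case is therefore the likelier, and its share over all lower replicate 3 islands was not taken. Regions lower in both replicates were in 10 domains (0.867%; background 1.18%) and regions higher in both were in 9 (0.780%; background 0.472%). Another 12 tested regions went down in replicate 1 but up in replicate 2, and the share of all 2424 regions that did so was not taken. Of the 31 tested regions in the domains edgeR's quasi-likelihood test called 0 in either direction (background 0% of 2424 regions; 5 lower and 6 higher at an unadjusted p under 0.05), and DESeq2 called 4 lower and 4 higher. No direction of H3K9ac can therefore be given for the domains, and the biological coefficient of variation in its fit was 0.47 against 0.098 for H3K4me3 and 0.14 for H3K27ac.

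The 10 lower and 9 higher H3K9ac regions listed one way in both replicates all reached within 1 kb of a domain end. Of these, 9 lower and 7 higher regions extended beyond the domain and so reached an end by definition. On Peaxi162Scf00290 (613401 to 618200) H3K9ac had 318 reads at 7AM and 51 at 7PM for replicate 1, and 191 and 83 for replicate 2. H3K27ac reads at the same end of that domain went from 207 to 51 and from 97 to 26. The neighbouring end of the next domain on the scaffold, at 667001 to 674800, had H3K9ac reads of 473 and 87, and of 291 and 157. On Peaxi162Scf00778 (20801 to 23600) H3K9ac reads went from 85 to 19 and from 67 to 35. On Peaxi162Scf00463 (506401 to 512800) H3K9ac was the higher at 7PM, with 26 and 66 reads in replicate 1 and 69 and 222 in replicate 2, and H3K27ac reads at that end went from 58 to 189 and from 12 to 66. The edgeR adjusted p of these H3K9ac regions lay between 0.105 and 0.11.

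Acetylation islands of one direction often shared an end of a domain in the 3 pairs of lists compared. An island was counted at an end when it overlapped the 1 kb on either side of it, so islands outside the domain count here and did not in the numbers of domains above. Among domains in which H3K9ac and H3K27ac each had lower replicate 1 islands at a single end, the end was the same in 76 of 86 (88.4%, 79.7 to 94.3). Higher islands of both acetylation marks in replicate 2 shared the end in 20 of 24 (83.3%, 62.6 to 95.3), and lower H3K27ac islands of replicates 1 and 2 in 42 of 45 (93.3%, 81.7 to 98.6). Where replicate 1 of H3K9ac listed a lower and replicate 2 a higher island, each at a single end so defined, these were at opposite ends in 27 of 38 domains. H3K4me3 islands lower in replicate 2 shared the end with lower H3K9ac islands of replicate 1 in 36 of 58 (62.1%, 48.4 to 74.5). They shared it with higher H3K27ac islands of replicate 2 in 3 of 16 (18.8%, 4.05 to 45.6). Between these lay lower H3K27ac islands of replicate 1, with 17 of 29 (58.6%, 38.9 to 76.5), and higher H3K9ac islands of replicate 2, with 11 of 27 (40.7%, 22.4 to 61.2). These 8 pairs of lists were counted after the data had been seen, with no test.

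**Figure D5:**
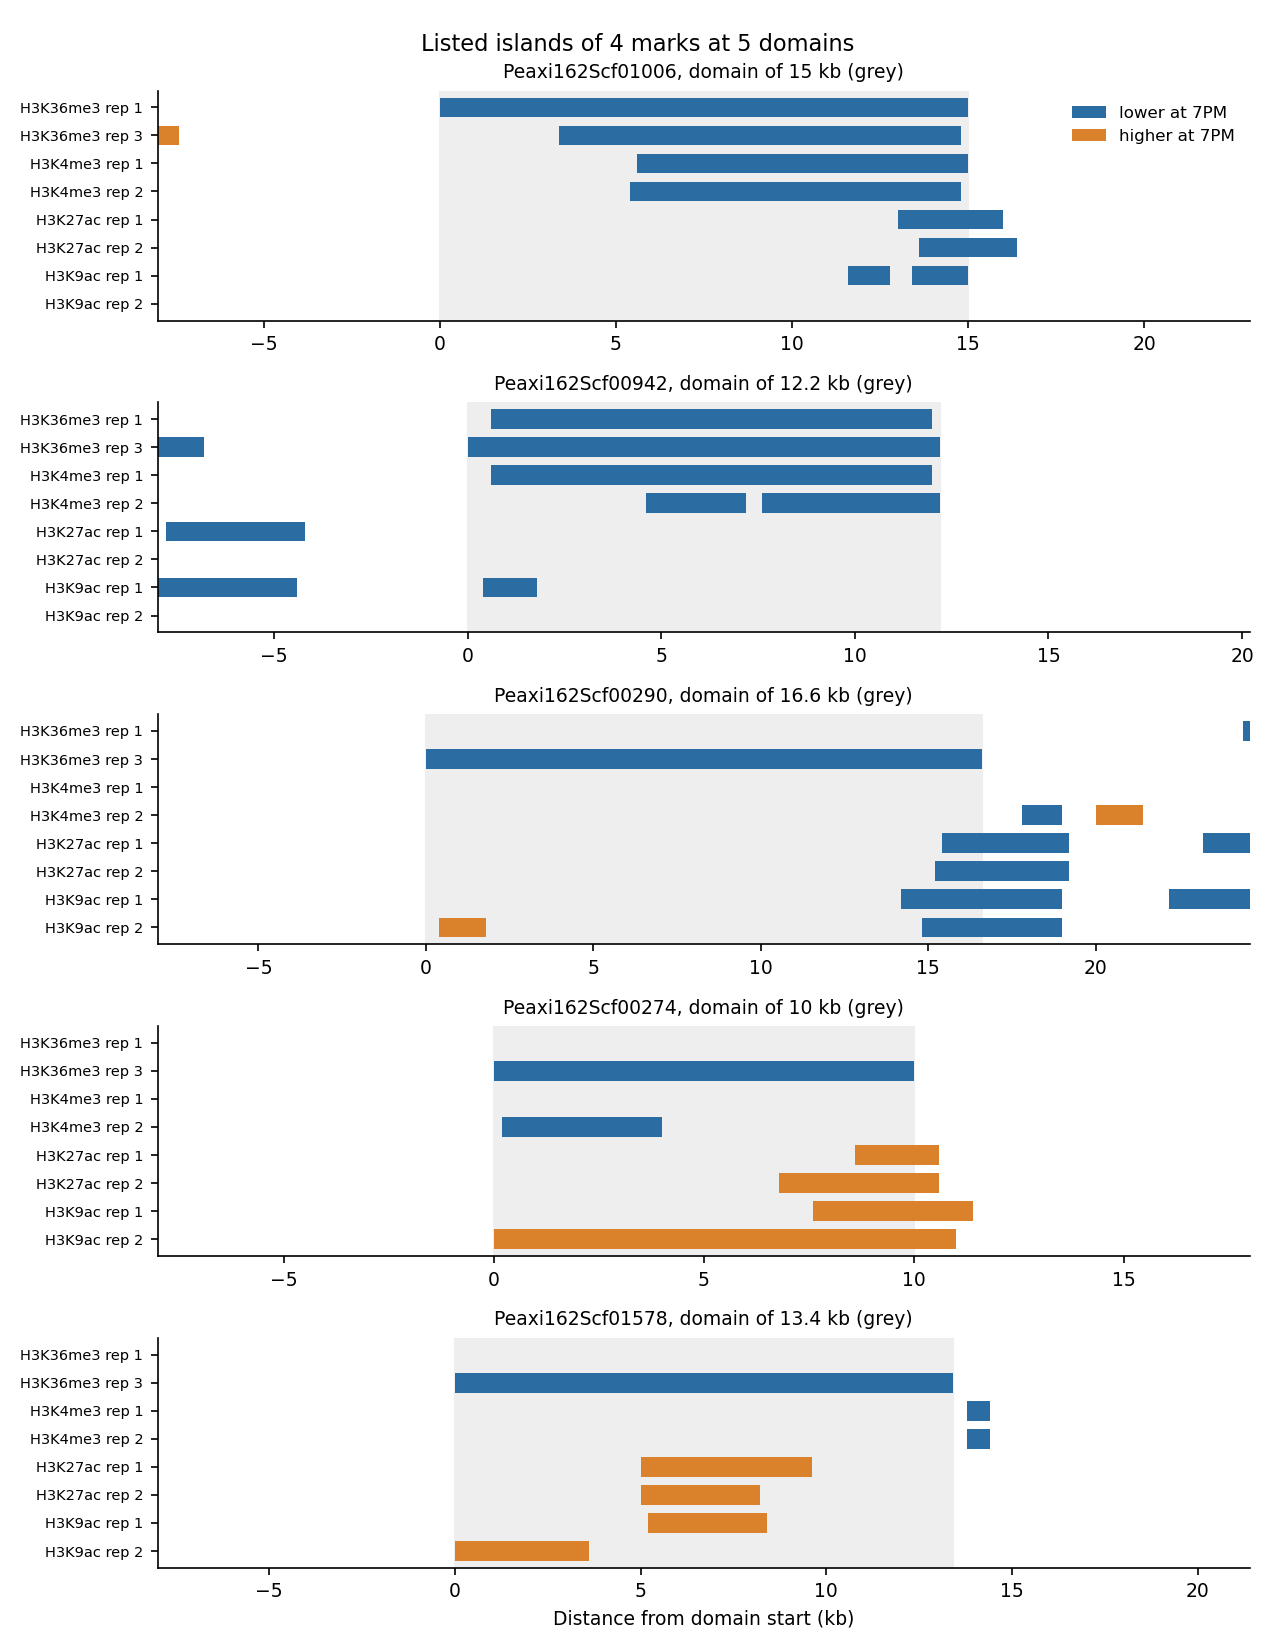
Listed islands of each mark and replicate (rows) at 5 domains, drawn to scale against distance from the domain start (kb), with the domain in grey, lower islands in blue and higher islands in orange; an empty row means no listed island. Lower H3K36me3 islands cover most of each domain, in both replicates for the first 2 and in replicate 3 alone within the last 3. On Peaxi162Scf01006 the replicate 3 island starts at 3.4 kb. Acetylation islands are shorter than the domains except for H3K9ac replicate 2 on Peaxi162Scf00274.

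The maps of single domains show the arrangements side by side. On Peaxi162Scf01006 the H3K36me3 island of replicate 1 covered 0 to 15 kb of the domain and that of replicate 3 covered 3.4 to 14.8 kb. Lower H3K4me3 islands began at 5.6 kb in replicate 1 and at 5.4 kb in replicate 2 and ended at 15 and 14.8 kb. Lower H3K27ac islands sat across the right end, from 13 to 16 kb and from 13.6 to 16.4 kb, where replicate 1 had 113 reads at 7AM and 26 at 7PM and replicate 2 had 57 and 22. On Peaxi162Scf00942 H3K4me3 of replicate 1 covered 0.6 to 12 kb, which are the same borders as those of the H3K36me3 island of replicate 1. On Peaxi162Scf00274 a lower H3K4me3 island of replicate 2 lay at 0.2 to 4 kb and the higher H3K27ac islands lay at the other end, reaching 10.6 kb in a domain of 10 kb. These 5 domains were picked for drawing from those named by rule, after their values had been seen.

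The 46 domains listed in both H3K36me3 replicates were set beside the rest, with no test of any difference. Lower H3K4me3 islands of replicate 1 were in 10 of the 46 (21.7%, 10.9 to 36.4) and in 30 of the 1108 listed in replicate 3 alone (2.71%, 1.83 to 3.84). Those of replicate 2 were in 18 of 46 (39.1%, 25.1 to 54.6) and in 301 of 1108 (27.2%, 24.6 to 29.9). Regions of H3K4me3 lower in both replicates were in 6 of 46 (13.04%, 4.94 to 26.3) and in 7 of 1108 (0.632%, 0.254 to 1.30). Lower H3K9ac islands of replicate 1 were in 24 of 46 (52.2%, 36.9 to 67.1) and in 316 of 1108 (28.5%, 25.9 to 31.3). Those of replicate 2 were in 1 of 46 (2.17%, 0.055 to 11.5) and in 35 of 1108 (3.16%, 2.21 to 4.37), and regions of H3K9ac lower in both replicates were in 0 of 46 (at most 7.71%) and in 10 of 1108 (0.903%). With 1 and 0 of the 46 domains, these counts are too small to show whether replicate 2 of H3K9ac followed replicate 1. For H3K27ac the shares of lower replicate 1 islands were 15.2% (6.34 to 28.9) and 12.8% (10.9 to 14.9). All domains share the same libraries, so whether these intervals overlap does not decide if the 46 differ from the rest. The split was made after the data had been seen, and whether libraries with one replicate number come from the same chromatin is not stated in the labels.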

How the data were processed

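The data were 16 deposited lists of ChIP-seq islands from petunia corolla, with 1 list of lower and 1 of higher islands at 7PM per mark and replicate. Groups and replicate numbers came from the labels, and the 6 input samples were not used. SICER 1.1, Bowtie2 and cutadapt were run, per the submitters' processing notes. The genome build, tool settings and use of inputs were not given in the sources used here. The 13 columns of a deposited list are unnamed, and in them the authors give read counts of both libraries, the same counts as CPM, their fold (a ratio), and a p-value and FDR. Which count column belongs to which time was read from the direction of each list and from the fold. The authors' deposited lists hold only islands with a fold of at least 2, each called within 1 pair of libraries, so places that did not change are missing and replicate values exist only where both lists hold an island. The series' design text calls the replicates biological and says nothing of separate plants, so p-values measure the spread between these samples.

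Islands of 10 kb or more were merged into domains. Folds are log2 of 7PM over 7AM with 1 read added and library totals, computed as count over CPM, as scale. Intervals are exact (95%) and treat islands as independent draws, and they cover counting error only. A count of 3 reads is worth 0.446 CPM in the library of lowest depth. Regions of another mark (islands of its 2 replicates merged where they overlap) were fitted in R 4.3.3 with edgeR 4.0.16, using its robust quasi-likelihood test on deposited counts, with the replicate as a block, because island borders belong to a pair and the authors compared times within a replicate. Benjamini-Hochberg adjustment ran over all regions of the mark. Same-numbered samples deviated together across regions (r = 0.80 for H3K4me3, 0.52 for H3K27ac and 0.48 for H3K9ac), a value that shared borders raise. Island merging and the test were tested on simulated data with Python 3.11.15 and R. Alternatives used TMM, median-of-ratios scaling, DESeq2 1.42.0, no block, other length, FDR, read and overlap limits, and single replicates.

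The domains, the named lists and the tests were chosen with earlier results of these data known. Named domains were the 5 longest, the 5 with the largest mean fall among those listed in both replicates, any that were higher (0), the 5 with the most regions of other marks listed in both replicates (ties by reads of replicate 3 at 7AM; the largest number was 2, in 12 domains), the 5 with the largest opposite change of another mark, and 3 islands on each side of 10 kb.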

Additional observations from a re-analysis of the deposited data

How the results depend on the processing

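With a minimum of 8 kb there were 1938 domains, 97 of them listed in both replicates, and the domains with a region lower in both replicates numbered 31 for H3K4me3 and 66 for H3K27ac, with 31 and 67 regions called lower. With 15 kb the values were 416, 12, 5 and 7 (H3K9ac 3), with 5 and 7 regions called lower and 6 H3K27ac regions higher. Domains with an H3K4me3 region lower in both replicates within 1 kb of an end, inside the domain or outside it, numbered 21 (41 at 8 kb, 7 at 15 kb). The stricter FDR of 1e-05 left 4 H3K9ac domains, an overlap of 50% left 20 for H3K27ac and 4 for H3K9ac, and a minimum of 50 reads left 24 and 4, with 24 H3K27ac regions called lower and 6 higher and 3 H3K9ac regions lower and 4 higher.

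TMM and median-of-ratios scaling called 0 regions lower for H3K4me3 and H3K27ac, where most tested regions were lower and centring takes those calls away by construction (under TMM the median log2 fold of tested regions in the domains was 0.01 for H3K4me3 and 0.15 for H3K27ac), and for H3K9ac 1 and 0 lower and 8 higher; DESeq2 called 4 H3K9ac regions each way. Without the replicate block 0 H3K4me3 and 26 H3K27ac regions were called lower. Leaving out an H3K36me3 replicate gave 21 to 1154 domains, holding 2 to 13 with H3K4me3, 1 to 38 with H3K27ac and 0 to 10 with H3K9ac lower in both replicates, and 2 to 21 at an end. Single replicates of a mark gave 40 to 319, 78 to 149 and 36 to 340 domains. Of 105 alternative values 59 stayed near the main value, judged for counts by their ratio and for median log2 folds by a difference under 0.15. Some of these could not move, such as the number of domains without replicate 1, since every domain held a long replicate 3 island. Fits that leave out a replicate of a mark could not be made, because 1 pair leaves no residual degrees of freedom. Unlisted islands, the unknown reads of replicate 1 in 1108 domains and 2 pairs per mark limit all comparisons.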

Other observations

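Some broad domains lay next to each other, but most did not. Of 566 gaps between neighbouring domains on one scaffold, 60 (10.6%) were under 10 kb, 35 under 2 kb and 20 at most 600 bp, while the median gap was 173.3 kb. Linking domains over gaps under 10 kb gave 54 runs. The longest run was on Peaxi162Scf00126 (492201 to 586800), where 4 domains filled 97.9% of 94.6 kb. On Peaxi162Scf01826 (24201 to 76400) 3 domains filled 97.3% of 52.2 kb. All of these were lower at 7PM in replicate 3 and none of the 8 domains on Peaxi162Scf00126 was listed in replicate 1. Peaxi162Scf00066 held the most domains, 11 between 39201 and 2047200, with falls of 2.01-fold to 2.87-fold in replicate 3. Most scaffolds with a domain held 1 (309 of 588), and 46 held 5 or more. These counts depend on scaffold length, which the lists do not give, and they were made after the data had been seen.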
